A study of Mus musculus with 6 samples.

Results

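Heparan sulfate proteoglycans are proteins of the cell surface and the matrix that carry long sulfated sugar chains, and *Sulf1*, *Sulf2*, *Sdc1*, *Sdc2*, *Sdc3*, *Sdc4*, *Gpc1*, *Gpc3*, *Gpc4* and *Gpc6* are described here in *Clk4*-cKO mouse hearts that had received NEXN-WT or NEXN-S437E by AAV. These 10 genes were taken by symbol, with all 18 of their probes among the 56605 non-control probes of the array, and 13 of the 18 probes, at least 1 for each gene, passed the filter on dim probes that left 22998 probes of 13747 genes. In the arrays labelled NEXN-S437E, *Sulf2*, *Gpc6* and 1 of the *Sdc1* probes were lower than in NEXN-WT by at least 2-fold with an unadjusted p under 0.05, and *Sulf1* and another *Sdc1* probe were lower by less than 2-fold. No member probe reached an adjusted p of 0.05.

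Each of the 6 arrays held RNA from the heart of 1 male C57BL/6J mouse, 3 mice per group, labelled with Cy3 in a single colour. All mice, the NEXN-WT group included, were labelled *Clk4*-cKO, which in this study stands for floxed *Clk4* alleles and MerCreMer, a tamoxifen-dependent Cre driven by the α-MHC promoter of cardiomyocytes, so that other heart cells are not targeted. An *Esr1* reading given below goes against this label for the NEXN-S437E arrays. NEXN is nexilin, an actin-binding protein of the sarcomere, and NEXN-S437E carries glutamate in place of a serine to mimic its phosphorylated form. Both vectors were AAV9 with a CMV promoter, which is not restricted to cardiomyocytes, and were injected intravenously into 5-week-old mice; tamoxifen began at 6 to 8 weeks of age and the phenotype was examined 3 weeks after its first injection. As labelled, the comparison asks how the phosphomimic changes the heart when the kinase is missing; a difference in Cre genotype between the groups cannot be told apart from it. Hearts without vector or with intact *Clk4* were not analysed here.

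Syndecans span the membrane and signal through their short tails, glypicans are held at the surface by a lipid anchor, and both present growth factors such as FGFs to their receptors through the sulfate pattern of their chains. The sulfatases encoded by *Sulf1* and *Sulf2* act outside the cell and remove 6-O-sulfate groups from heparan sulfate, which alters the binding of FGFs, Wnts and other ligands. In the heart, syndecans and glypicans are found on cardiomyocytes, endothelial cells and fibroblasts, and *Sdc1*, known as CD138 in immunology, also marks plasma cells and epithelia.

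The probes are 60 bases long, and the middle 30 bases, in lower case, are shown for the probes on which the results turn: those that were lower with NEXN-S437E and the 3 *Gpc4* probes, whose readings differed in direction. No base is in capitals, because no motif was searched. Positions are those of the deposited annotation on mm9, and no annotation of that build was used here, so exon, intron or UTR is not stated for any probe.
Sulf1 A_51_P142744: gcgtacgcttttcccaggaaccattgcatg
Sulf2 A_52_P193925: taatatgaaatcccgcttttcaagagtcgc
Sdc1 A_52_P479269: catttttggcggcccgtaagtaggctggct
Sdc1 A_65_P20200: acctagaagaaccaaatctggacgccaaaa
Gpc6 A_51_P372112: aatctcttctttctccagacggacatgaac
Gpc4 A_51_P252725: gcagtgtaggtacagaactgtagttagttg
Gpc4 A_55_P2733337: gaggcttaattttattagaagtagccagtt
Gpc4 A_55_P1992495: gaagtggagttgactttgggttttcttcct

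The *Sulf1* probe lay at chr1:12850302-12850361 on the plus strand and the *Sulf2* probe at chr2:165899667-165899726 on the minus strand. The 2 *Sdc1* probes lay close together, at chr12:8799383-8799442 and chr12:8799275-8799334, and the *Gpc6* probe at chr14:118375138-118375197, all on the plus strand. The *Gpc4* probes lay at chrX:49406388-49406447, chrX:49404574-49404633 and chrX:49406100-49406159 on the minus strand.

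NEXN-WT replicate 1 stood apart from the other arrays. Over the tested probes its mean absolute log2 difference from any other array was 0.38 to 0.56, against 0.19 to 0.33 between the other 5 arrays, and its 75th percentile of signal was the highest, 273 against 110 to 175. For 9 of the 13 tested member probes it had the highest value of the 6 arrays, and for 2 the lowest, so the members are given or plotted with and without it, and a listed gene is given without it where its value moved by over 1.5 times or lost its call. NEXN-S437E replicates 2 and 3 were in slide row 2, and the remaining 4 arrays in slide row 1, so a difference within slide row 1, or with slide row as a block, sets NEXN-S437E replicate 1 alone against the 3 NEXN-WT arrays. The share of spots well above background ran from 41.9% to 47.8%. *Clk4* (A_52_P445387) ranged from 1.12 to 1.63 on the log2 scale over the 6 arrays with an adjusted p of 0.71. The other 2 *Clk4* probes were too dim to be tested: A_52_P128262 read −3.73 to −3.17 with NEXN-WT and −3.08 to −2.85 with NEXN-S437E, and A_52_P368396, whose groups overlapped, −4.17 to −3.34 and −3.39 to −3.21. The 2 *Nexn* probes had adjusted p values of 0.98 and 0.74. By contrast, 1 of 7 probes for *Esr1*, the estrogen receptor gene of which MerCreMer carries a part, read 3.13 to 5.82 with NEXN-WT, whereas with NEXN-S437E no array had it well above background and it was at least 255-fold lower (A_55_P2030883, adjusted p = 0.0011). Another *Esr1* probe, A_52_P237077, was also well above background in the NEXN-WT group alone and at least 1.55-fold higher there (adjusted p = 0.20). The third tested *Esr1* probe, A_65_P17231, was well above background on 3 NEXN-WT and 2 NEXN-S437E arrays. Its groups overlapped, with a log2 fold change of −0.58 (adjusted p = 0.36). Whether any of these probes reads the part that MerCreMer carries was not examined. The first of these readings goes against a transgene shared by both groups, and its part in any difference below was not tested; the groups are named as labelled.

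Levels are log2 processed signals after subtraction of the array's 75th percentile, so 0 is that percentile and a difference of 1 is 2-fold, and means are given with the SD of 3 arrays. Levels of different probes are not compared, because probes differ in efficiency. Differences were tested with limma over all 22998 probes, and the adjusted p is the Benjamini-Hochberg value over all of them. For reference, all tested probes together had a median of 0.09 for this log2 fold change.

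Both sulfatase genes were lower in the arrays labelled NEXN-S437E. The *Sulf2* level was 3.25, 3.27 and 3.00 in the NEXN-WT hearts and 2.00, 2.22 and 2.20 in the NEXN-S437E hearts. The groups did not overlap, and NEXN-WT replicate 1 did not stand out for this gene. The mean was 3.17 ± 0.15 in NEXN-WT and 2.14 ± 0.13 in NEXN-S437E, a log2 fold change of −1.03 (95% interval −1.38 to −0.68), with an unadjusted p of 0.00014 (adjusted p = 0.061). On the linear scale *Sulf2* was 51.2% lower. Without NEXN-WT replicate 1 the log2 fold change was −0.99, just inside 2-fold, with an adjusted p of 0.060. Within slide row 1, with a single NEXN-S437E array, it was −1.18. *Sulf2* ranked 53 of all tested probes by p, the highest place among the members.

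The *Sulf1* level was 3.72, 2.83 and 3.02 in the NEXN-WT hearts and 2.53, 2.09 and 2.28 in the NEXN-S437E hearts. All NEXN-WT values lay above all NEXN-S437E values, but NEXN-WT replicate 1 was the highest by a wide margin. The mean fell short of a 2-fold change, at 3.19 ± 0.47 against 2.30 ± 0.22, and the log2 fold change of −0.89 (95% interval −1.46 to −0.32) had an unadjusted p of 0.0070 (adjusted p = 0.17). Without NEXN-WT replicate 1 it was −0.63 with an unadjusted p of 0.0090, the groups still apart. With slide row as a block, which leaves NEXN-S437E replicate 1 alone against NEXN-WT, it was −0.66 with an unadjusted p of 0.11. The other 2 *Sulf1* probes, A_55_P2624103 and A_55_P2716856, had no array well above background and were not tested.

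*Sdc1*, the syndecan of epithelia and plasma cells, was the only syndecan gene with a probe past an unadjusted p of 0.05, and both of its detected probes were. Probe A_52_P479269 read −0.21, −0.97 and −0.997 in the NEXN-WT hearts and −1.53, −1.22 and −1.72 in the NEXN-S437E hearts. Probe A_65_P20200 read −0.45, −1.32 and −1.57 against −2.29, −2.12 and −2.12. On both, the groups were apart and NEXN-WT replicate 1 was the highest array. The log2 fold change was −0.77 (95% interval −1.34 to −0.20, unadjusted p = 0.015, adjusted p = 0.21) for the first and −1.06 (−1.70 to −0.43, unadjusted p = 0.0049, adjusted p = 0.15) for the second. These probes belong to 1 transcript and are not independent evidence of each other. Without NEXN-WT replicate 1 the differences were −0.51 and −0.73, both with an unadjusted p under 0.05 and neither 2-fold. With normexp correction the differences were −0.37 and −0.43, neither 2-fold. Probe A_65_P20200 kept an unadjusted p under 0.05 in all 18 alternatives, whereas A_52_P479269 lost it in 3. These were the fit without NEXN-S437E replicate 3, at −0.65 (unadjusted p = 0.054), the methods' t-test, at −0.77 (unadjusted p = 0.061), and slide row as a block, at −0.80 with 1 NEXN-S437E array. The third *Sdc1* probe, A_55_P2842699, stayed too dim for the filter on all 6 arrays and was not tested.

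For the other 3 syndecans the groups overlapped. *Sdc2*, the syndecan of fibroblasts and other mesenchymal cells, read 3.28, 2.30 and 2.54 in the NEXN-WT hearts and 2.32, 2.40 and 2.38 in the NEXN-S437E hearts. Its log2 fold change of −0.34 (95% interval −0.91 to 0.23, adjusted p = 0.48) became −0.05 without NEXN-WT replicate 1, the 1 array that lay above the rest. *Sdc4*, which is found at focal adhesions and at the Z-disc of cardiomyocytes, read 1.56, 1.099 and 1.08 against 1.19, 0.83 and 1.06. Its log2 fold change was −0.22 (−0.65 to 0.21, adjusted p = 0.55). *Sdc3*, best known from neurons, read −0.31, −0.63 and −0.96 against −0.78, −0.76 and −0.88, with a log2 fold change of −0.18 (−0.61 to 0.25, adjusted p = 0.63). Without NEXN-WT replicate 1, *Sdc4* and *Sdc3* differed by −0.06 and −0.02. The intervals over all 6 arrays still include a loss of more than 30% for each of these 3 genes, as their lower bounds were 46.7%, 36.2% and 34.3% below NEXN-WT.

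**Figure D1:**
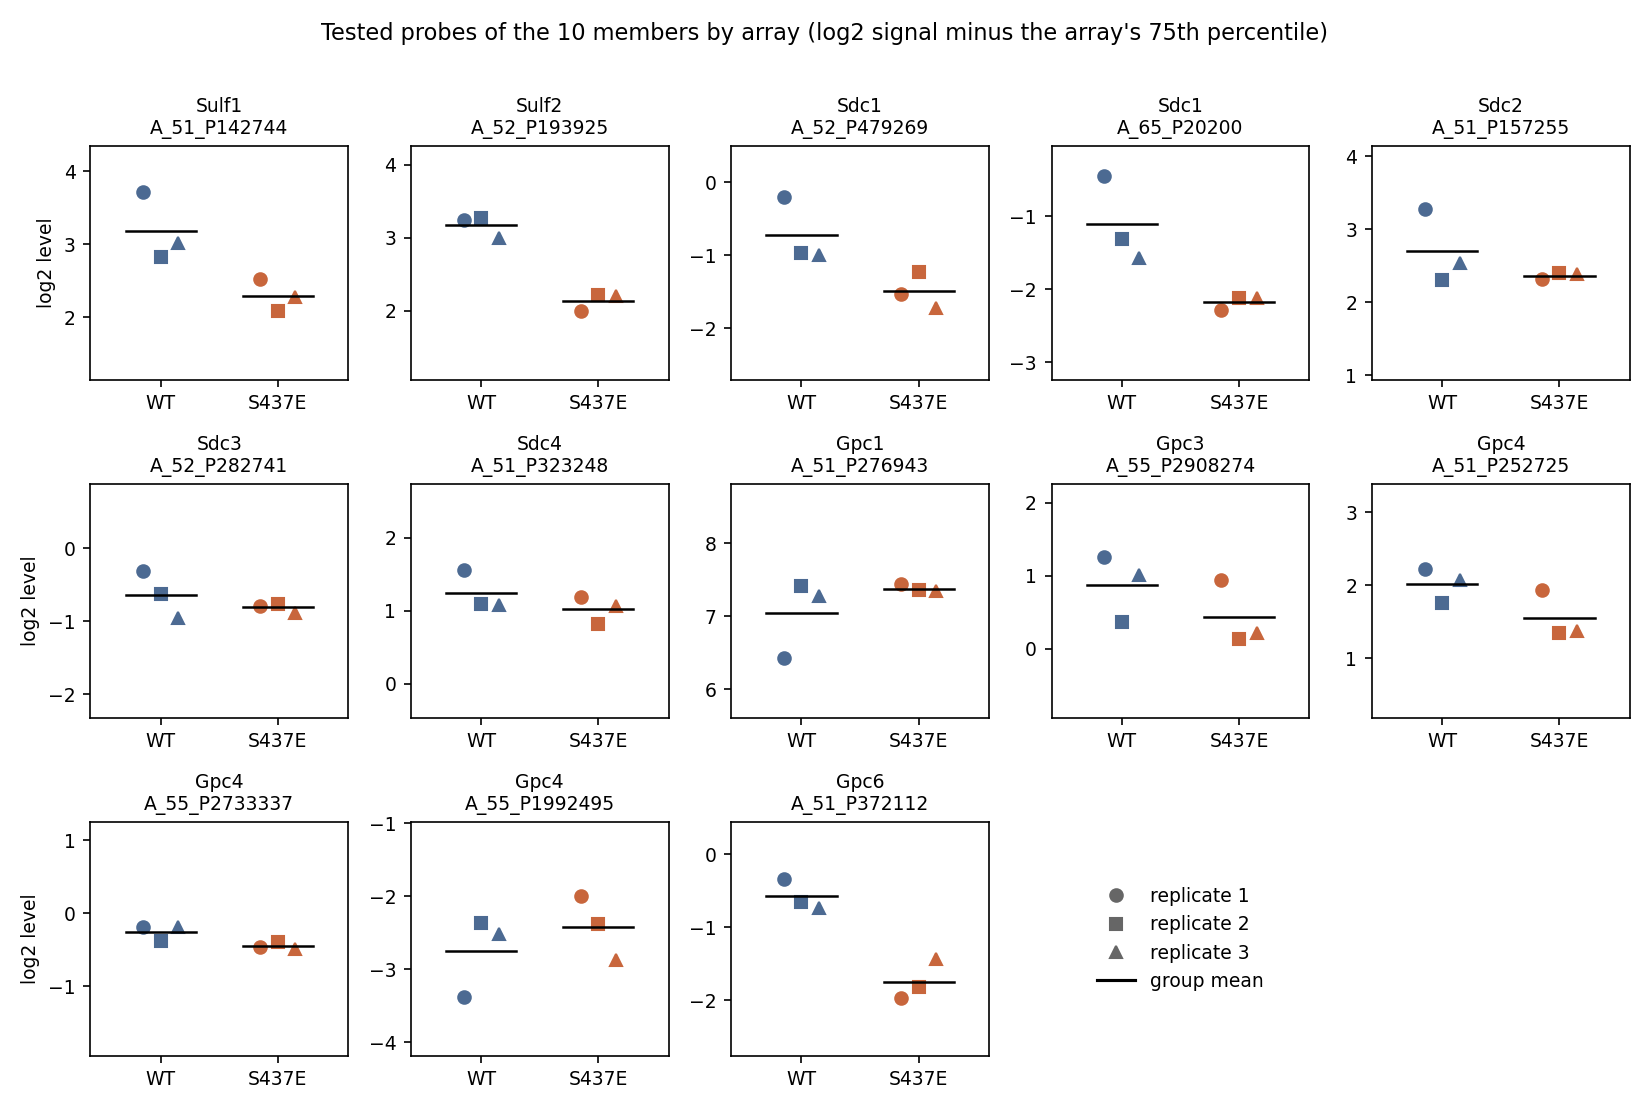
Levels of the 13 tested member probes on each array, as log2 signal minus the array's 75th percentile (vertical axes, each spanning the same range around its own mean), for NEXN-WT (blue) and NEXN-S437E (orange). Symbols mark the replicates and bars the group means; all 3 NEXN-WT arrays lie above all 3 NEXN-S437E arrays for 6 probes, and replicate 1 of NEXN-WT (circle) is the highest array for 9.

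Among the glypicans, *Gpc6*, a broadly expressed family member, had the largest difference of all members over the 6 arrays. With normexp correction *Sulf2*, *Sulf1*, *Sdc2*, *Gpc4* A_51_P252725 and *Sdc1* A_65_P20200 had larger ones than *Gpc6*. So did *Sulf2* with array weights and *Sdc1* A_65_P20200 without NEXN-WT replicate 3. The *Gpc6* probe A_51_P372112 read −0.34, −0.65 and −0.73 in the NEXN-WT hearts and −1.97, −1.82 and −1.44 in the NEXN-S437E hearts. The lowest NEXN-WT array lay well above the highest NEXN-S437E array, and NEXN-WT replicate 1 was close to the other 2. The mean was −0.57 ± 0.21 against −1.74 ± 0.27, a log2 fold change of −1.17 (95% interval −1.61 to −0.73) or 55.6% less on the linear scale, with an unadjusted p of 0.00028 (adjusted p = 0.080). It was −1.05 without NEXN-WT replicate 1, and −1.40 within slide row 1, where the NEXN-S437E arm is 1 array. The size of this change depended on how the background was treated, and with normexp correction at an offset of 50 the log2 fold change was −0.41 with an unadjusted p of 0.0069. The second *Gpc6* probe, A_65_P17813, stayed too dim on all 6 arrays as well and was not tested.

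*Gpc4* was read by 3 probes that did not behave alike. The first, A_51_P252725, read 2.22, 1.76 and 2.07 in the NEXN-WT hearts and 1.93, 1.35 and 1.38 in the NEXN-S437E hearts. NEXN-S437E replicate 1 lay within the NEXN-WT range, and the log2 fold change was −0.46 (95% interval −0.95 to 0.02, unadjusted p = 0.058, adjusted p = 0.30). This probe passed an unadjusted p of 0.05 under 9 of 18 alternatives, among them the normalized values the authors deposited (−0.53, unadjusted p = 0.040) and normexp correction (−0.45, unadjusted p = 0.014), but with slide row as a block, for NEXN-S437E replicate 1 alone, its difference was −0.08. Probe A_55_P2733337 read −0.19, −0.38 and −0.19 against −0.45, −0.39 and −0.49. Here the groups were apart by a narrow margin, and the log2 fold change was −0.19 (−0.51 to 0.13, adjusted p = 0.48). The third, A_55_P1992495, read −3.38, −2.36 and −2.52 against −1.99, −2.37 and −2.88, with a log2 fold change of 0.34 (−0.39 to 1.07, adjusted p = 0.58) that dropped to 0.02 without NEXN-WT replicate 1. The last 2 probes are annotated to the same predicted transcript, and over all 6 arrays none of the 3 passed an unadjusted p of 0.05.

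*Gpc3*, a glypican known for restraining growth in the embryo, read 1.26, 0.36 and 1.01 in the NEXN-WT hearts and 0.95, 0.14 and 0.22 in the NEXN-S437E hearts (A_55_P2908274). NEXN-S437E replicate 1 again lay within the NEXN-WT range. The log2 fold change was −0.44 (95% interval −1.12 to 0.23, adjusted p = 0.44) over all arrays, and 0.07 within slide row 1, that is for NEXN-S437E replicate 1 alone. It was −0.25 without NEXN-WT replicate 1, but −0.70 without NEXN-WT replicate 2 (unadjusted p = 0.041) and −0.70 without NEXN-S437E replicate 1 (unadjusted p = 0.042). The other *Gpc3* probe, A_55_P2165344, was well above background on only 1 array, NEXN-WT replicate 3, and was not tested.

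*Gpc1*, a glypican of skeletal muscle, nerve and vessels, was the only gene with no lower probe. It read 6.43, 7.42 and 7.28 in the NEXN-WT hearts and 7.44, 7.36 and 7.34 in the NEXN-S437E hearts. NEXN-WT replicate 1 was the lowest and the other 5 arrays lay close together. The log2 fold change of 0.34 (95% interval −0.25 to 0.93, adjusted p = 0.50) was 0.03 without that array and 0.06 with the normalized values the authors deposited.

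**Figure D2:**
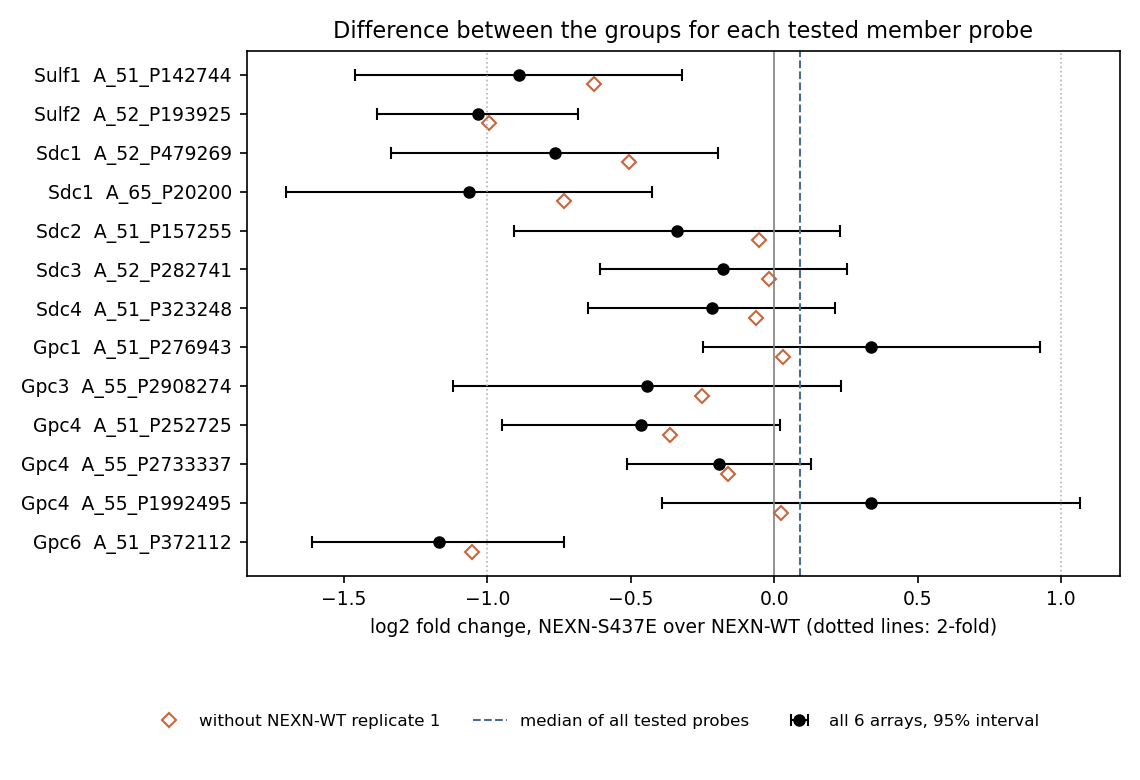
Log2 fold change of NEXN-S437E over NEXN-WT (horizontal axis) for the 13 tested member probes; black points and bars are the estimates and 95% intervals of limma over all 6 arrays, open diamonds the difference without NEXN-WT replicate 1, the dashed line the median of all tested probes (0.09) and dotted lines a 2-fold change. The intervals of *Sulf1*, *Sulf2*, both *Sdc1* probes and *Gpc6* lie below 0, and the estimates of *Sdc2*, *Sdc3*, *Gpc1* and *Gpc4* A_55_P1992495 move to within 0.06 of 0 without that array.

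Counted over the 13 tested probes, 11 had a lower mean in the arrays labelled NEXN-S437E and 2 a higher one, and their median log2 fold change was −0.44. Of all 13747 genes, each read at its probe of highest mean, 5611 were lower and 8136 higher by direction alone. At 2-fold and an unadjusted p under 0.05, 3 member probes were lower, where 1.78% of all tested probes were, and 0 were higher, where 0.735% were. At an unadjusted p under 0.05 alone, 5 were lower against 6.7% of all tested probes, and 0 were higher against 10.5%. With Benjamini-Hochberg adjustment in limma, 0 of the 13 passed, against 0.161% of all tested probes, 5 passing before adjustment; other settings of limma passed up to 5, with array weights, where 16.6% of all tested probes passed, and the methods' t-test 0, with 4 before adjustment. In 6 probes all NEXN-WT arrays lay above all NEXN-S437E arrays (9.17% of all tested probes), and none had the reverse order (18.7%). In an exact permutation test, two-sided, each of these 6 had a p of 0.1, the smallest that 3 arrays against 3 allow. The 13 probes read 10 genes, several probes read 1 gene, and the genes were chosen with results of these data known, so these counts describe the members and carry no p of their own.

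Leaving out NEXN-WT replicate 1, 11 probes had a lower mean, where 9722 of the 23158 probes then tested had. Of the 11, 5 were lower at an unadjusted p of 0.05, against 5.89% of all probes then tested. Only 1, *Gpc6*, was 2-fold as well, against 1.15%. All 11 probes with a lower mean were lower as well under each of the 5 ways of scaling the arrays.

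**Figure D3:**
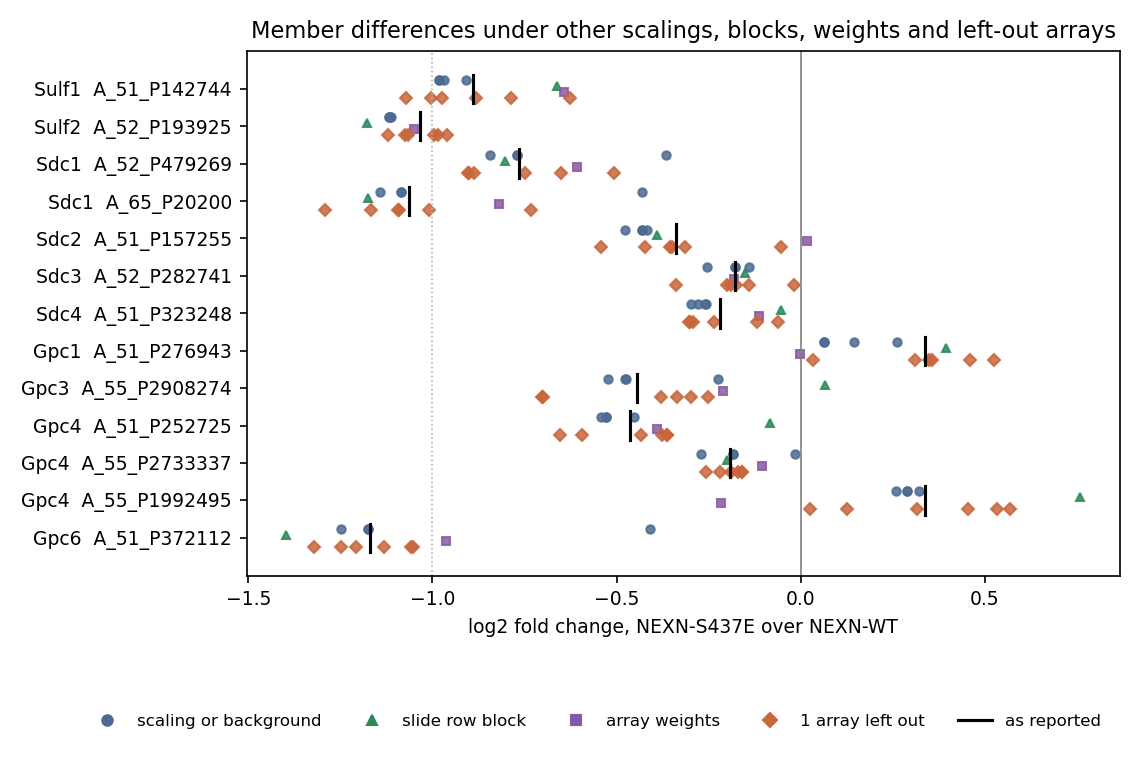
Log2 fold change of each tested member probe (horizontal axis; the dotted line is 2-fold) as reported (black bar) and under 4 other scalings or background corrections (circles), with slide row as a block (triangle), with array weights (square) and with each array left out in turn (diamonds). *Sulf2* keeps between −1.18 and −0.96 throughout, whereas *Gpc6* and both *Sdc1* probes shrink to between −0.43 and −0.37 with normexp correction.

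Of the enzymes that build and modify the heparan sulfate chain, 1 tested gene passed an unadjusted p of 0.05, and a p above it does not show that the others were alike in both groups. For these lists each gene is read at its probe of highest mean. Over all 13747 genes so read, 5611 had a lower mean and 8136 a higher one, with a median log2 fold change of 0.07. At an unadjusted p under 0.05, 7.91% were lower and 10.1% higher, and 2.15% were lower and 0.771% higher when 2-fold was required too. None of the 5 tested linkage region enzymes, which lay the tetrasaccharide on the core protein, passed an unadjusted p of 0.05, the nearest being *B3galt6* at −0.23 (unadjusted p = 0.15), and *Xylt1* did not pass the filter on dim probes. None of the 4 tested polymerases did either; *Ext1*, a subunit of the chain polymerase, had a log2 fold change of −0.42 (unadjusted p = 0.21), *Extl3* of −0.23 and *Extl1* of 0.38, while *Ext2* did not pass the filter. These values rested in part on NEXN-WT replicate 1, as without it *Ext1* had −0.05 and *Extl1* −0.02.

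Of the 9 tested among 16 enzymes that modify the chain, only *Hs3st5* passed, and it was higher. This 3-O-sulfotransferase read −3.23, −2.95 and −3.09 in the NEXN-WT hearts and −2.03, −2.43 and −2.06 in the NEXN-S437E hearts, low but well above background on all 6 arrays and apart, with a log2 fold change of 0.92 (unadjusted p = 0.00061, adjusted p = 0.092). The 2-O-sulfotransferase *Hs2st1* had −0.31 (unadjusted p = 0.11) and *Hs3st1* 0.37 (unadjusted p = 0.066, with another probe at 0.03). *Hs6st1*, which adds the 6-O-sulfate that the sulfatases of *Sulf1* and *Sulf2* remove, was not among the genes the naming rule picked and was looked at after its value was known; its log2 fold change was 0.02 (unadjusted p = 0.90), or −0.08 without NEXN-WT replicate 1. The median of the list was −0.09.

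All 5 tested genes for the supply of sulfate donor had a lower mean, on all 5 scalings, and 1 passed an unadjusted p of 0.05. *Papss2*, which makes the donor PAPS, read 4.19, 3.62 and 3.47 in the NEXN-WT hearts and 3.18, 2.74 and 2.90 in the NEXN-S437E hearts, a log2 fold change of −0.82 (unadjusted p = 0.0061, adjusted p = 0.16). Another *Papss2* probe read −0.44. The paralogue *Papss1* had −0.22 (unadjusted p = 0.22), or −0.12 without NEXN-WT replicate 1. Of 8 tested genes for the lysosomal breakdown of heparan sulfate 5 had a lower mean, and 1 of these passed an unadjusted p of 0.05, *Arsg* (−0.58, unadjusted p = 0.011). It was well above background on 1 NEXN-S437E array only, so that it entered the test through the group in which it was higher. It was also not lower on 1 of the 5 scalings. Of the other 7 genes, well above background on all arrays, 0 passed an unadjusted p of 0.05 in limma. The heparanase gene *Hpse* did not pass the filter on dim probes.

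The other sulfatases, most of which act inside the cell, together with the sulfatase modifying factors *Sumf1* and *Sumf2*, had a lower mean in 8 of 8 tested genes and a median of −0.34. *Arsk* and *Arsb* were well above background on 2 and 1 of the NEXN-S437E arrays, so they entered the test only through the group in which they were higher, and the other 6 genes had a median of −0.32. Past an unadjusted p of 0.05 were *Arsk* (−0.71, unadjusted p = 0.0014), a lysosomal sulfatase of glycosaminoglycan breakdown, and *Galns* (−0.35, unadjusted p = 0.032, with another probe at −0.87), which is deficient in Morquio syndrome. Both read below the array's 75th percentile on all arrays, and 6 of the 8 genes were lower on all 5 scalings, *Arsk* among them but not *Arsb* or *Galns*.

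Of 7 other proteoglycans that carry heparan sulfate, 4 had a lower mean and 2 of these passed an unadjusted p of 0.05. *Col18a1*, a basement membrane collagen and the precursor of endostatin, read 2.61, 2.19 and 2.52 in the NEXN-WT hearts and 2.10, 1.48 and 1.53 in the NEXN-S437E hearts, a log2 fold change of −0.74 (unadjusted p = 0.0085). *Agrn*, which encodes agrin, had −0.38 (unadjusted p = 0.036), and −0.29 (unadjusted p = 0.064) without NEXN-WT replicate 1. *Hspg2*, the perlecan gene, had −0.20 (unadjusted p = 0.20), and *Cd44* −0.33 (unadjusted p = 0.13), or −0.21 without that array. Another *Cd44* probe read −0.76.

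**Figure D4:**
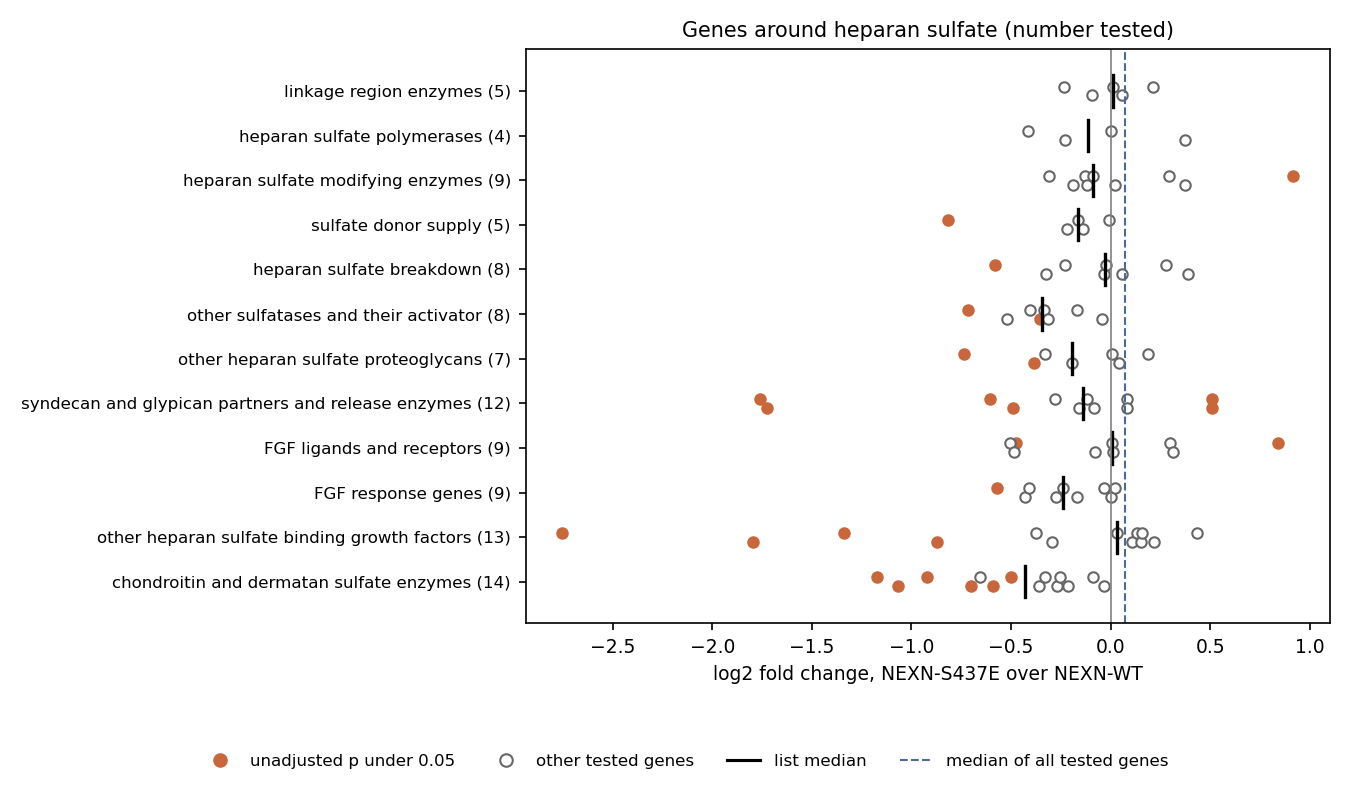
Log2 fold change of NEXN-S437E over NEXN-WT (horizontal axis) for each tested gene of 12 lists around heparan sulfate, at its probe of highest mean; filled points passed an unadjusted p of 0.05, black bars are list medians and the dashed line is the median of all tested genes (0.07). Growth factors reach −2.76, all 14 chondroitin and dermatan sulfate enzymes lie below 0, and no linkage enzyme or polymerase is filled.

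The genes that anchor, use or release syndecans and glypicans moved in both directions. *Mmp2* and *Mmp14*, matrix metalloproteinases that can shed syndecans, were lower by at least 2-fold. *Mmp2* read 5.36, 3.74 and 3.83 in the NEXN-WT hearts and 2.77, 2.44 and 2.45 in the NEXN-S437E hearts, a log2 fold change of −1.76 (unadjusted p = 0.0024). *Mmp14* was at least 2.25-fold lower, as no NEXN-S437E array had it well above background. It thus entered the test through the group in which it was higher. *Prkca*, the kinase that binds the tail of syndecan-4, had −0.60 (unadjusted p = 0.012) and the sheddase *Adam17* −0.49 (unadjusted p = 0.047), although other probes of these genes read up to 0.03 and 0.11. *Lpl*, the lipase held at the vessel wall by heparan sulfate, was higher by 0.51 (unadjusted p = 0.021), and so was its endothelial carrier *Gpihbp1*, by 0.51 (unadjusted p = 0.028). The 6 tested *Lpl* probes ran from 0.51 to 1.43. In all, 4 of 12 tested genes were lower, *Mmp14* among them, and 2 higher at an unadjusted p under 0.05. This became 3 lower and 1 higher without NEXN-WT replicate 1, as *Adam17* (−0.32, unadjusted p = 0.12) and *Gpihbp1* (0.35, unadjusted p = 0.062) no longer passed.

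For FGF signalling, which needs heparan sulfate as a co-receptor, 1 of 9 tested ligands and receptors was lower and 1 higher at an unadjusted p under 0.05. *Fgf18* had a log2 fold change of −0.48 (unadjusted p = 0.012). *Fgf13*, an intracellular family member that binds sodium channels and does not activate FGF receptors, read −0.35, 0.14 and 0.31 in the NEXN-WT hearts and 0.85, 0.81 and 0.97 in the NEXN-S437E hearts, a log2 fold change of 0.84 (unadjusted p = 0.0025). The main ligands *Fgf1* and *Fgf2* had 0.30 (unadjusted p = 0.12) and 0.01 (unadjusted p = 0.98) and the receptor *Fgfr1* −0.49 (unadjusted p = 0.13); *Fgf2* is named outside the naming rule, after its value was seen. With NEXN-WT replicate 1 left out, *Fgf1* had 0.15, *Fgf2* 0.09 and *Fgfr1* −0.18. Of 9 genes that FGF signalling induces, 7 had a lower mean and 1 of these passed an unadjusted p of 0.05. This was the feedback inhibitor *Il17rd* (−0.57, unadjusted p = 0.0080, with other probes up to 0.30). *Dusp6* and *Spred1* had −0.27 (unadjusted p = 0.093) and −0.43 (unadjusted p = 0.088, or −0.18 without NEXN-WT replicate 1), and the median of the 9 was −0.24 over all arrays but −0.08 without NEXN-WT replicate 1.

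Other growth factors that bind heparan sulfate held the largest differences around the members. *Ptn* and *Mdk*, which encode pleiotrophin and midkine, a pair of heparin-binding cytokines that use syndecans as receptors, were both lower. *Ptn* read 2.08, 0.42 and 0.23 in the NEXN-WT hearts and −1.41, −2.21 and −1.92 in the NEXN-S437E hearts, a log2 fold change of −2.76 (unadjusted p = 0.00037, adjusted p = 0.082). *Mdk* read 2.89, 1.25 and 1.22 against 0.19, −0.22 and 0.01, a log2 fold change of −1.80 (unadjusted p = 0.0027, adjusted p = 0.13). NEXN-WT replicate 1 was far above the other arrays for both, and without it the differences were −2.17 and −1.24. *Tgfb3* (−1.34, unadjusted p = 0.0024) and *Tgfb2* (−0.87, unadjusted p = 0.0061, with another probe at −1.12) were lower too, *Tgfb3* by less than 2-fold (−0.95) without that array. The other 9 of the 13 tested genes did not pass. Among them were *Hbegf* at −0.38 (unadjusted p = 0.061), *Bmp4* at −0.29 (unadjusted p = 0.13) and *Cxcl12* at 0.43 (unadjusted p = 0.14, or 0.15 without that array). Another *Cxcl12* probe read 0.03. The median of the list was 0.03, or −0.11 without that array.

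The enzymes of chondroitin and dermatan sulfate, the sister chains built on the same linkage, had a lower mean in 14 of 14 tested genes, 12 of them on all 5 scalings, with a median of −0.43. At an unadjusted p under 0.05, 6 were lower, and 2 of these by at least 2-fold. *Chst11*, a chondroitin 4-O-sulfotransferase, read −1.28, −1.48 and −1.71 in the NEXN-WT hearts and −2.17, −2.62 and −2.88 in the NEXN-S437E hearts, a log2 fold change of −1.07 (unadjusted p = 0.0011). *Dse*, a dermatan sulfate epimerase, had −1.17 (unadjusted p = 0.027) and was well above background on 1 NEXN-S437E array only, so it entered the test through the group in which it was higher; the 13 genes above background on all arrays had a median of −0.36. *Dsel*, *Chpf*, *Chst12* and *Chsy1* had −0.92, −0.70, −0.59 and −0.50, which became −0.50, −0.47, −0.50 and −0.31 on leaving out replicate 1 of NEXN-WT. Without NEXN-WT replicate 1, 14 of 14 were still lower, with a median of −0.28, but 3 rather than 6 passed (*Chst11*, *Dsel* and *Chpf*) and 0 were 2-fold.

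Markers of several cell types moved with the members, and in bulk hearts fewer cells of a type and less RNA per cell cannot be told apart. All 8 markers of activated fibroblasts were at least 2-fold lower, with a median log2 fold change of −3.35, or −2.98 over the 7 genes well above background on all arrays, since *Cthrc1* was so on 1 NEXN-S437E array only and entered the test through the group in which it was higher. They had a summed level, in units of the 75th percentile, of 85.2 to 368 on the NEXN-WT arrays and 26.8 to 29.3 on the NEXN-S437E arrays. Without NEXN-WT replicate 1 all 8 passed an unadjusted p of 0.05 and 7 were 2-fold. All 8 fibroblast markers had a lower mean, 6 of them at an unadjusted p under 0.05, among them *Pdgfra* (−0.86, unadjusted p = 0.0073). Their summed level was 623 to 951 against 450 to 484. All 8 cardiomyocyte markers had a higher mean, 4 of them at an unadjusted p under 0.05, with sums of 1620 to 2320 against 2680 to 2750. Over all 13747 genes, each at its probe of highest mean, 7.91% were lower and 10.1% higher at that threshold. Leaving NEXN-WT replicate 1 out, all 8 of each list kept their direction, with 5 fibroblast markers lower and 3 cardiomyocyte markers higher at that threshold. Their part in the lower *Sulf1*, *Sulf2*, *Sdc1* and *Gpc6* readings was not tested.

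Endothelial markers did not pass the test in any of 8 genes, with sums of 182 to 238 in NEXN-WT and 204 to 250 in NEXN-S437E. Of the 8 smooth muscle and pericyte markers 1 was lower and 1 higher, with sums of 147 to 200 and 148 to 205. Of 8 macrophage markers 2 were lower and none higher, with sums of 169 to 226 and 198 to 214. Without NEXN-WT replicate 1 the lower smooth muscle marker, *Pdgfrb*, no longer passed, at −0.30 (unadjusted p = 0.055) against −0.35 over all arrays. Nor did *Cx3cr1*, 1 of the 2 macrophage markers that had passed, at −0.68 (unadjusted p = 0.079) against −0.66. T cell markers were lower in 5 of 6 tested genes, with sums of 2.91 to 4.28 against 1.49 to 1.71; 1 of the 5, *Cd3g*, had no NEXN-S437E array well above background and entered the test through the group in which it was higher. The plasma cell and epithelial lists are given in more detail because *Sdc1* marks those cells. *Jchain*, the joining chain of secreted antibodies, was at least 4.13-fold lower, with no NEXN-S437E array well above background, and *Cd79b* had −0.61 (unadjusted p = 0.011), while *Cd79a* and *Ms4a1* did not pass the filter on dim probes. *Tnfrsf17*, a plasma cell receptor, was detected in this sense with 1 of 3 NEXN-WT and 3 of 3 NEXN-S437E hearts and so entered the test through the group in which it was higher, and its groups overlapped, with a log2 fold change of 1.30 (unadjusted p = 0.014) over all arrays and 0.97 (unadjusted p = 0.059) without NEXN-WT replicate 1. *Mzb1* had 0.16 (unadjusted p = 0.52), or −0.06 without that array, and *Xbp1*, a secretory pathway factor of many cell types, 0.17 (unadjusted p = 0.25). The summed level of the 5 tested genes of that list was 35.6 to 40.2 on the NEXN-WT arrays and 41.9 to 43.3 on the NEXN-S437E arrays. Nearly all of this sum was *Xbp1*, and without it the other 4 genes summed to 0.959 to 1.17 on the NEXN-WT arrays and 0.587 to 0.681 on the NEXN-S437E arrays. That smaller sum includes *Jchain*, which entered the test through the group in which it was higher. Only 2 of the 5 tested genes were well above background on all arrays. Of the epithelial and mesothelial list, *Epcam*, *Krt8*, *Krt19*, *Upk3b* and *Upk1b* did not pass the filter, *Krt18* was lower over all arrays (−1.24, unadjusted p = 0.017) but not past the threshold without NEXN-WT replicate 1 (−0.85, unadjusted p = 0.059), *Msln* had 0.74 (unadjusted p = 0.099) and *Wt1* 0.23 (unadjusted p = 0.21), and the sums of the 3 tested genes were 2.39 to 3.01 and 2.08 to 3.73. The part of these cell types in the *Sdc1* readings was not tested.

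**Figure D5:**
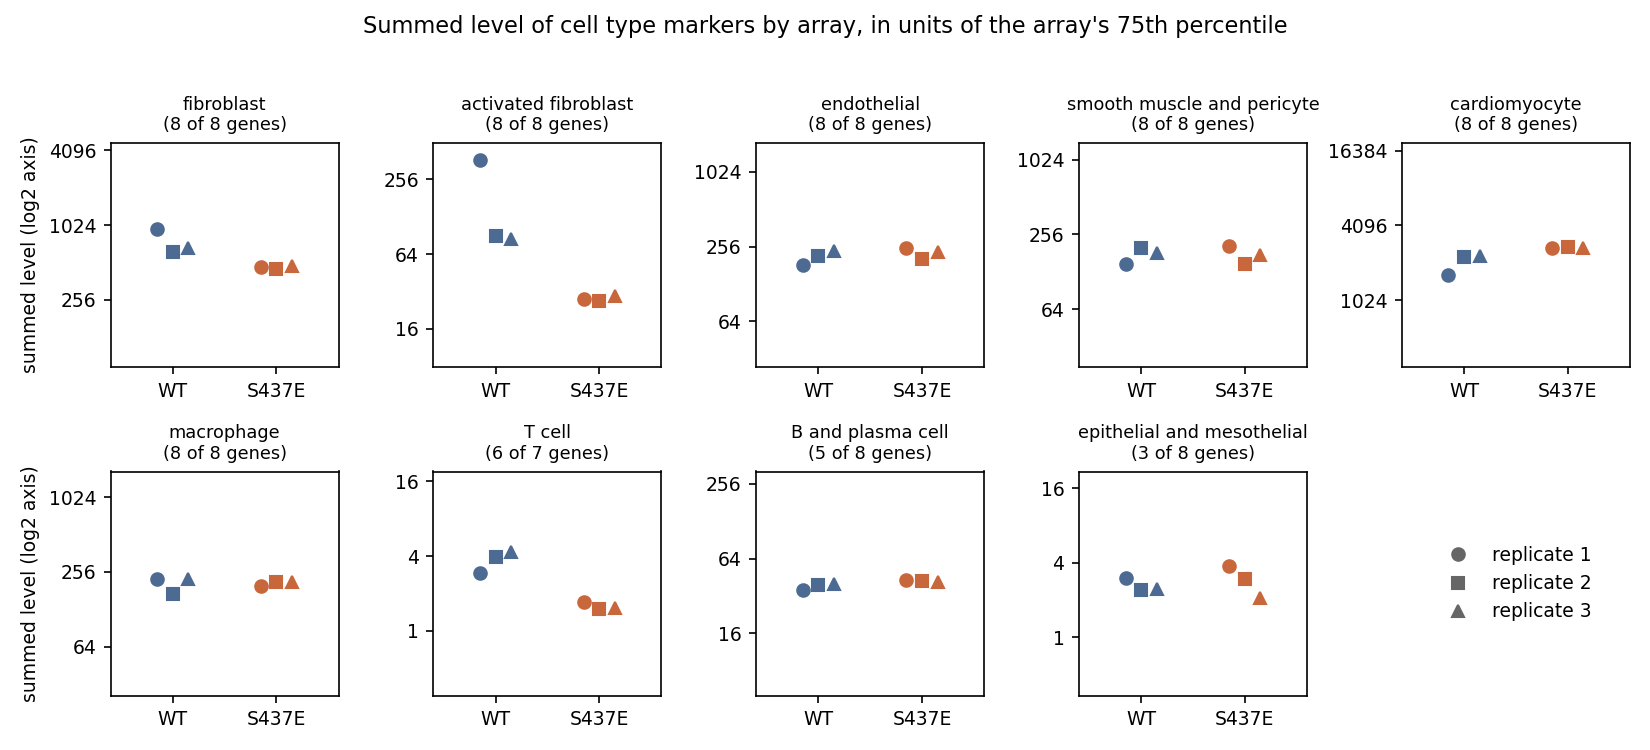
Summed level of the tested markers of 9 cell types on each array (vertical axes, log2 scale, in units of the array's 75th percentile), for NEXN-WT (blue) and NEXN-S437E (orange), with symbols for the replicates. Activated fibroblast markers separate the groups most, from 85.2 or more to 29.3 or less, and NEXN-WT replicate 1 is the highest array for both fibroblast lists and the lowest for cardiomyocytes.

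The genes whose values over the 6 arrays were most like those of the sulfatases were, for *Sulf1*, *Kctd15*, *Tspyl3*, *C1qtnf5*, *Pkd2* and *Ahnak2*, with Pearson r between 0.995 and 0.996. For *Sulf2* they were *Tap1*, *Uck2*, *Dlg4*, *Myl1* and *Nfatc4*, with r from 0.988 to 0.997. The 2 sets of 5 share no gene. These correlations run over 6 arrays in 2 groups and were picked as the highest among all tested probes, so they are a description and were not tested; the log2 fold changes of these 10 genes ran from −1.22 (*Myl1*) to −0.59 (*Tspyl3*).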

How the data were processed

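RNA of 6 hearts was hybridised to 1-colour Agilent 8x60K mouse expression arrays, 1 per mouse. The authors extracted each array with Feature Extraction 10.7.1.1, as the submitters' processing notes and file headers give it, which subtracts background and corrects spatial trends; the deposited intensities are linear and not normalized between arrays. In the table of the whole series the authors deposited the same intensity per probe and normalized log2 values that share a single distribution; their normalization is not given in the sources used here.

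Control and outlier spots were removed, log2 intensities were reduced by the array's 75th percentile, spots of a probe were averaged, and a probe entered the test if every array of 1 or both groups had it well above background; the test was run with limma 3.58.1 in R 4.3.3 (files read with version 1.17.8 of data.table), with 1 term for group. Precision is limited by the number of arrays, 3 per group, and by the signal over background. Where every array of a group was dim, a lower bound is given, the brighter group's mean against the dim arrays' mean of the lowest detected signal or the probe's own, whichever is higher.

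The members, the 12 pathway lists, the 9 marker lists and the naming rule were chosen with earlier results of these data known. Named are all members, in each pathway list every gene past 2-fold and an unadjusted p of 0.05 with up to 4 more by smallest p, and the 5 genes most like each sulfatase. Outside this rule, *Arsb*, *Hs6st1*, *Fgf2*, *Sumf1*, *Sumf2* and some genes that did not pass the filter are named too. Single marker genes were picked after their values were seen. The fit was tested on simulated data. The plots were made in matplotlib 3.10.9 and pandas 2.3.3 (Python 3.11.15, numpy 2.4.6). The 18 alternatives covered scaling, background (normexp, offset 50), filters, the t-test named by the study, blocks, trend, weights and left-out arrays; the list counts without NEXN-WT replicate 1, those over genes well above background on all arrays, the plasma cell sum without *Xbp1* and the differences within slide row 1 were chosen after seeing the data. Each group's samples are separate mice.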

Additional observations from a re-analysis of the deposited data

How the results depend on the processing

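The count of member probes past 2-fold and an unadjusted p of 0.05 was 3, where 2.52% of all tested probes passed in either direction. It became 1 with normexp background correction (*Sulf2*), where 0.783% passed, and 1 with array weights (*Sulf2*), where 2.24% passed. With an array left out it was 1 to 3, the 1 being without NEXN-WT replicate 1, where 1.59% passed. The count past an unadjusted p of 0.05 was 5, where 17.2% of all tested probes passed. It ran from 4 to 7 with an array left out, where 10.5% to 21.4% passed. Slide row as a block compares NEXN-S437E replicate 1 alone with NEXN-WT. There *Sulf1* had −0.66 and *Sdc1* A_52_P479269 −0.80, against −0.89 and −0.77 without a block. The count past an adjusted p of 0.05 was 0, where 0.161% of all tested probes passed. It became 1 with normexp (0.113%) or with an intensity trend (0.348%), *Sulf2* both times, and 5 with array weights, where 16.6% passed. The list median moved from −0.17 to −0.24 for sulfate donor supply with the percentile over detected probes, and, with all probes of a gene, from −0.20 to 0.0064 for other heparan sulfate proteoglycans and from 0.03 to −0.22 for other heparan sulfate binding growth factors. Of 234 values of single probes 4 reversed, none of a probe past the threshold: *Gpc3* A_55_P2908274 to 0.067 with the slide row block, and *Sdc2* to 0.016, *Gpc1* to −0.0027 and *Gpc4* A_55_P1992495 to −0.22 with array weights. The cause of these changes was not tested. Replicate numbers appear in the titles, but nothing says that they pair mice, and the deviations of same-numbered arrays correlated at −0.15, −0.028 and −0.18. With the replicate block 6 member probes passed an unadjusted p of 0.05 (14.2% of all tested probes), *Gpc4* A_51_P252725 joining, and 3 were 2-fold (2.57%).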
